A study of Homo sapiens with 4 samples.

Results

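The respiratory chain subunits encoded in the nucleus were compared between K562 cells expressing the JAZF1-SUZ12 fusion and mock cells. Members were taken by symbol from the protein-coding genes of the count table, and 88 of its 35606 genes matched. They comprise 36 genes of complex I, 4 of complex II, 10 of complex III, 18 of complex IV and 20 of complex V. NDUFA4, which carries a complex I symbol, was counted with complex IV because its protein is known as a subunit of cytochrome c oxidase. The symbols also take in UQCRHL, a retrocopy of UQCRH, ATP5IF1, an inhibitor of ATP hydrolysis by complex V, and ATP5MF-PTCD1, a readthrough gene.

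K562 was established from a patient with chronic myelogenous leukaemia and expresses erythroid genes. The fusion, known from endometrial stromal sarcoma, links JAZF1, a partner of the NuA4/TIP60 acetyltransferase, with SUZ12, which belongs to the core of Polycomb repressive complex 2. Messenger RNA was sequenced from 2 libraries labelled JAZF1-SUZ12 and 2 labelled mock. Both groups are the same cell line, numbered 1 and 2, and the labels give no vector, time point, clone or other agent. Whether the 2 libraries of a group came from separate cultures is not stated, so the p-values measure only the spread between these libraries, which may be technical.

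Library totals were 17260936 and 24423028 estimated counts for JAZF1-SUZ12, and 20444636 and 21296732 for mock. JAZF1 stood at 33.3 and 29.5 CPM (TMM-scaled counts per 1000000) in the JAZF1-SUZ12 libraries and at 0.591 and 1.28 in the mock libraries, and SUZ12 at 276 and 265 against 137 and 133, so both genes matched the labels. The source label gives uterus for a leukaemia line, so cell markers were examined. All 10 erythroid markers, including GATA1, were detected in every library, with a summed level of 12557 to 12960 CPM in the JAZF1-SUZ12 libraries and 11234 to 11449 in the mock libraries. Of 9 stromal markers, 5 had more than 3 counts in every library and LUM had 0 counts. Their summed level was 32.3 and 32.8 CPM against 15.1 and 14.6 CPM, of which COL1A1 gave 21.5 and 21.0 CPM against 5.22 and 6.45 CPM. Of 3 lymphoid markers, 2 passed the same limit, at a summed 4.18 to 6.13 CPM over all libraries, and MS4A1 had 0 counts. The part of these markers in the results below was not tested.

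The respiratory chain of the inner mitochondrial membrane passes electrons from NADH through complex I, and from succinate through complex II, to ubiquinone, then through complex III and cytochrome c to complex IV, which reduces oxygen. Complexes I, III and IV pump protons, and complex V, the ATP synthase, uses the gradient to make ATP. Complex II is built from nuclear genes alone, whereas the other complexes combine nuclear-encoded subunits with subunits encoded in mitochondrial DNA, so their making draws on both genomes. The transcription factors NRF1 and GABPA are known to bind promoters of many nuclear-encoded subunits.

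The promoters were searched for the sequences these factors are known for, to show what members share besides function. RefSeq sequences (GRCh38.p14) were matched for 70 of the 88 members, and the 250 bases before the annotated start were read on both strands. The NRF1 sequence (GCGCA, any base, then GCGC) was found in 15 of them, or 21.4%, against 7.75% of the 15397 protein-coding genes that had a promoter. Of the 11017 of those genes that were tested for expression, 10.1% held it. The ETS-family sequence CCGGAAG, of the kind GABPA binds, was found in 16, or 22.9%, against 12.2% of all these promoters and 15.8% of those of tested genes. Both sequences were found in 2 members. By complex, the NRF1 sequence was in 5 of 31 promoters of complex I, 2 of 3 of complex II, 3 of 7 of complex III, 1 of 15 of complex IV and 4 of 14 of complex V. The match in complex IV was in COX8C, which had too few counts to be tested. The stretches below show the form it takes in 1 or 2 tested members of each complex that has one, with the match in capitals, 5′ to 3′ on the gene's own strand.
NDUFA9: ttcttggttaGCGCTTGCGCagacaggcga
NDUFB4: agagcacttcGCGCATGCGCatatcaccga
SDHA: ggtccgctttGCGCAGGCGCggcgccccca
SDHD: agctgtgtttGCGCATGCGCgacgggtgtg
UQCRC1: gtacggtactGCGCCTGCGCcgcgaccgcc
UQCRFS1: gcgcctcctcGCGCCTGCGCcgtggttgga
ATP5F1C: gggagcttcgGCGCATGCGCgctgaggcct
ATP5PO: acgccaacgcGCGCGTGCGCccttgcgcgt
The NDUFA9 stretch lies at chr12:4649024-4649053 on the plus strand, 70 bases before the annotated start. The NDUFB4 stretch lies at chr3:120596167-120596196 on the plus strand and that promoter held a further match. The SDHD stretch lies at chr11:112086753-112086782 on the plus strand, 100 bases before the start. The SDHA stretch at chr5:218144-218173 is the first of several matches in that promoter. The other stretches lie at chr3:48609674-48609703 and chr19:29213163-29213192 for UQCRC1 and UQCRFS1, at chr10:7788145-7788174 for ATP5F1C and at chr21:33915809-33915838 for ATP5PO. A match is a run of letters and not a measured binding site.

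The expression of the subunit genes differed little between the groups. Of the 88 members, 83 had enough counts to be tested, and edgeR's quasi-likelihood test called 6 of them (7.23%) at an adjusted p under 0.05, whereas it called 24.7% of the 14750 genes tested. NDUFA7 was the 1 member called higher, and NDUFA5, NDUFA6, NDUFA9, NDUFB10 and ATP5MF were the 5 called lower, where 13.3% of all genes were called higher and 11.4% lower. Among genes with a mean of at least 1000 counts, whose changes are measured with less error, 33.1% of 4816 genes were called, and 5 of the 74 members at that depth. The 6 called members differed by a log2 fold change of between -0.20 and 0.30. With total counts in place of TMM scaling the calls split into 3 higher and 3 lower, where 23.19% of all genes were called. Leaving out any 1 library changed the split of the members' calls, and the share of all genes called moved as well. The median log2 fold change of the members then ran from -0.06 to 0.01.

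**Figure D1:**
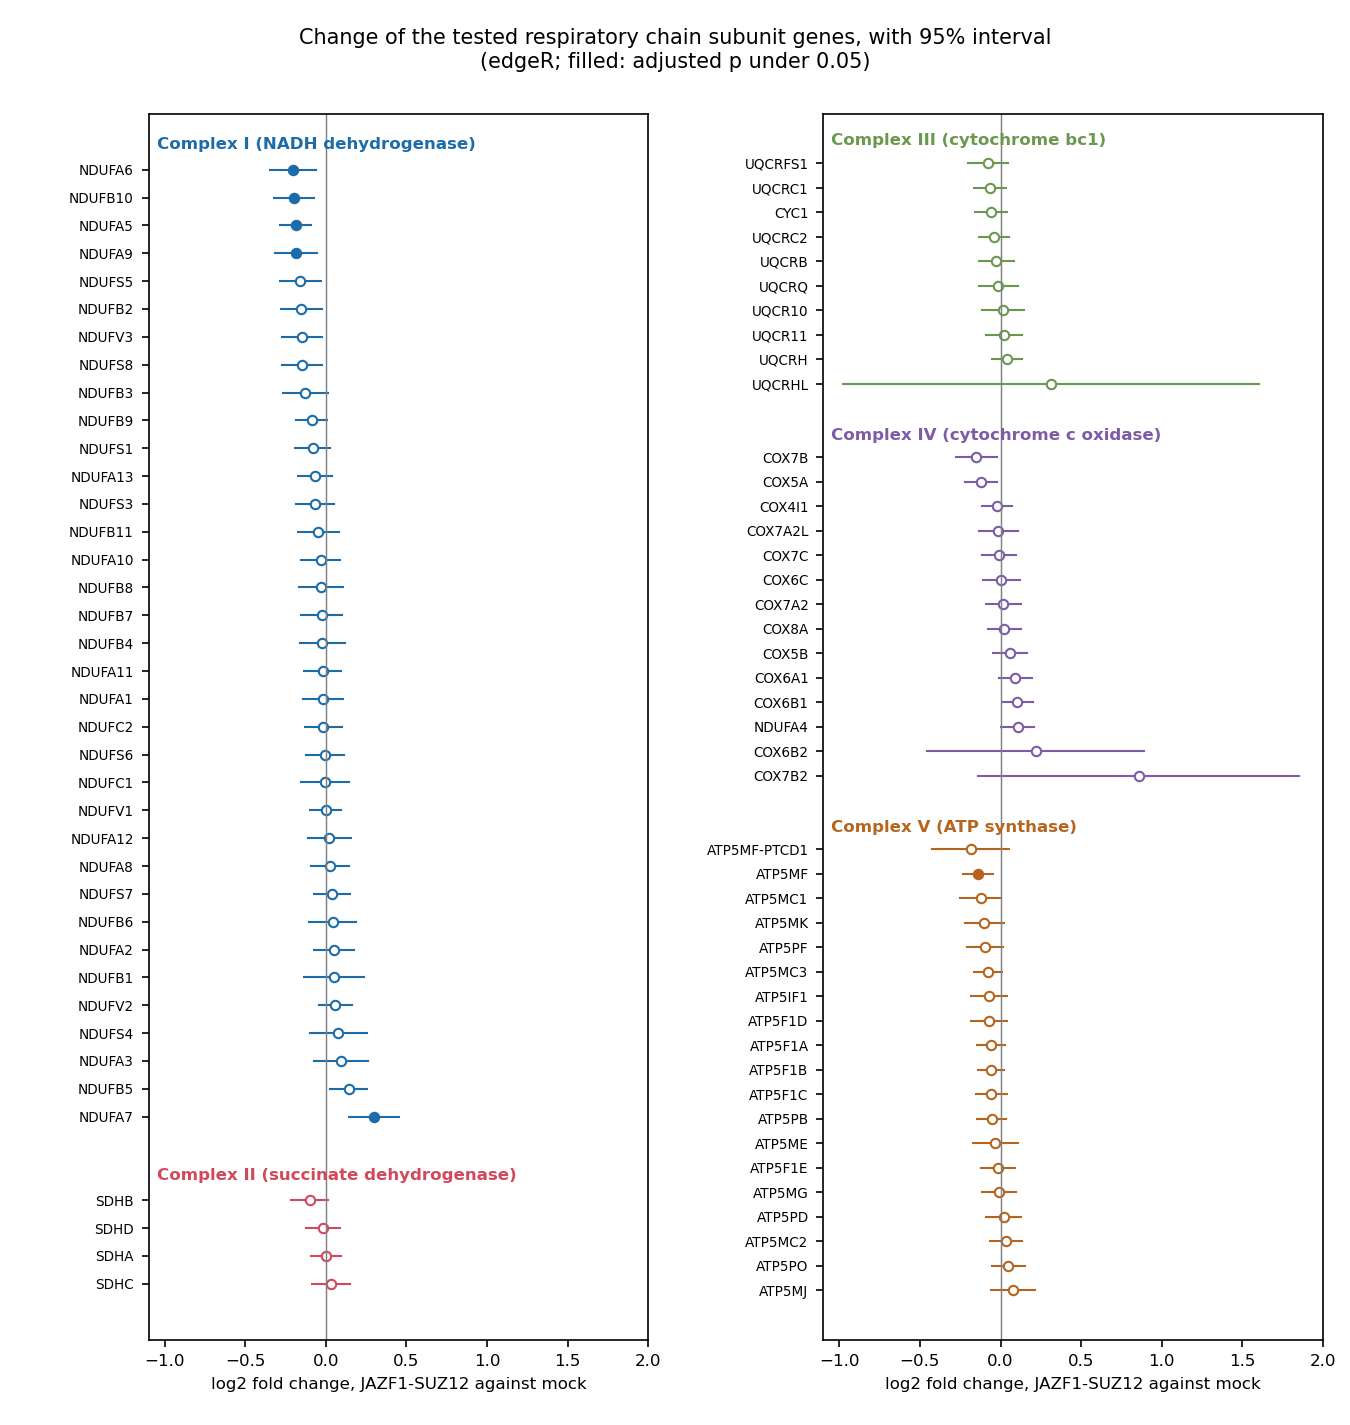
Difference (log2 fold change, JAZF1-SUZ12 against mock) of 82 of the 83 tested members, in panels by complex, with 95% intervals from edgeR. Filled points are the 6 called members; 80 of 83 intervals lie within 0.5 of 0 on the log2 scale, and the wide ones belong to COX6B2, COX7B2 and UQCRHL.

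The median log2 fold change of the members was -0.02, beside 0.00 over all genes tested. With total counts as the scaling the medians were 0.00 for the members and 0.03 for all genes. With TMM the median size of change regardless of sign was 0.06 beside 0.17. Within 0.1 of 0 on the log2 scale lay 60 members, or 72.3%, compared with 32.0% of all genes and 46.1% of genes with a mean of at least 1000 counts. Within 0.2 of 0 lay 78 members, or 94.0%, compared with 56.7% and 78.9%. For 80 of the 83 tested members the 95% interval of the log2 fold change lay within 0.5 of 0, or 1.41-fold in either direction. Each interval is for a single gene and measures only the spread between these libraries. The exceptions were COX6B2, COX7B2 and UQCRHL, which had few counts. The sign of these small differences depended on the scaling. With TMM, 53 members (63.9%, beside 49.5% of all genes) had a negative log2 fold change and 30 a positive one, and with total counts 40 members (48.2%, beside 45.5%) had a negative one. Groups did not overlap for 41 members (49.4%), beside 61.3% of all genes. Of these, 10 were above mock (12.0% of the members, beside 31.0% of all genes) and 31 below it (37.3%, beside 30.3%). At an unadjusted p under 0.05 the same test found 15 members, where 36.0% of all genes passed. DESeq2 called 1 member higher and 3 lower at an adjusted p under 0.05, where it called 16.3% of all genes.

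**Figure D2:**
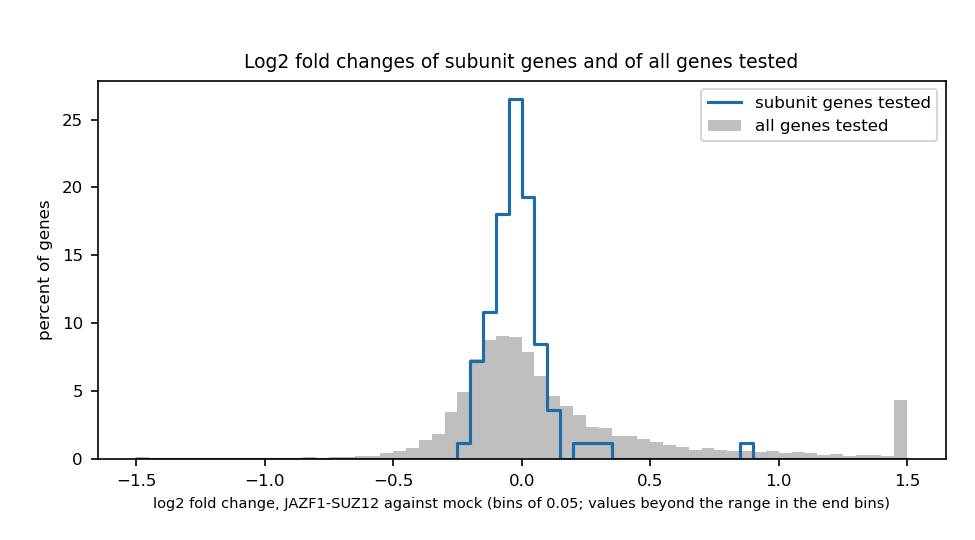
Share of genes, in percent, per bin of log2 fold change (JAZF1-SUZ12 against mock), for the 83 tested members (blue line) and all 14750 genes tested (grey). The members stand in a narrow peak around 0, with 72.3% within 0.1 of it, against 32.0% of all genes.

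The summed level of each complex was close in the 4 libraries. Complex I summed to 3714 and 3557 CPM with JAZF1-SUZ12 and to 3790 and 3712 CPM in mock. Complex V, the most abundant, summed to 5307 and 5138 CPM against 5445 and 5366 CPM. In both complexes the JAZF1-SUZ12 libraries had the lower mean, by a log2 ratio of -0.04 for complex I and -0.05 for complex V. Complex II summed to 636 and 626 CPM against 648 and 629, complex III to 1929 and 1839 against 1928 and 1884, and complex IV to 2353 and 2277 against 2344 and 2250. The groups overlapped in complexes I to IV, in complex I by little, and not in complex V. Together the members took 1.39% and 1.36% of all counts with JAZF1-SUZ12 and 1.41% and 1.37% in mock cells. In bulk samples, fewer cells of a type and less RNA per cell cannot be told apart.

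Differences between single replicates were about the size of those between group means. A group mean averages 2 libraries and varies less than 1 library, so the comparison is not like for like. The median size of the difference in log2(CPM + 0.5) over the members was 0.07 between the JAZF1-SUZ12 replicates, 0.05 between the mock replicates and 0.06 between the group means. For genes at or above 1000 counts on average, the corresponding values were 0.06 and 0.05 between replicates but 0.11 between groups. Of the 83 members, 70 (84.3%) were higher in JAZF1-SUZ12 replicate 1 than in replicate 2, by a median of 0.06, beside 52.6% of all genes and 66.4% of those at or above 1000 counts. Between the mock replicates 62 members (74.7%) were higher in replicate 1, by a median of 0.03, beside 49.7% and 50.7%. Their median transcript, at 1584 bases, was shorter than the 3519 bases of all genes tested. Across the tested members, Spearman's rho of transcript length was -0.244 with the log2 fold change, -0.050 with the difference between the JAZF1-SUZ12 replicates and -0.101 with that between the mock replicates. Across all genes it was 0.088, -0.071 and -0.041, where genes of the same libraries are not independent replicates.

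**Figure D3:**
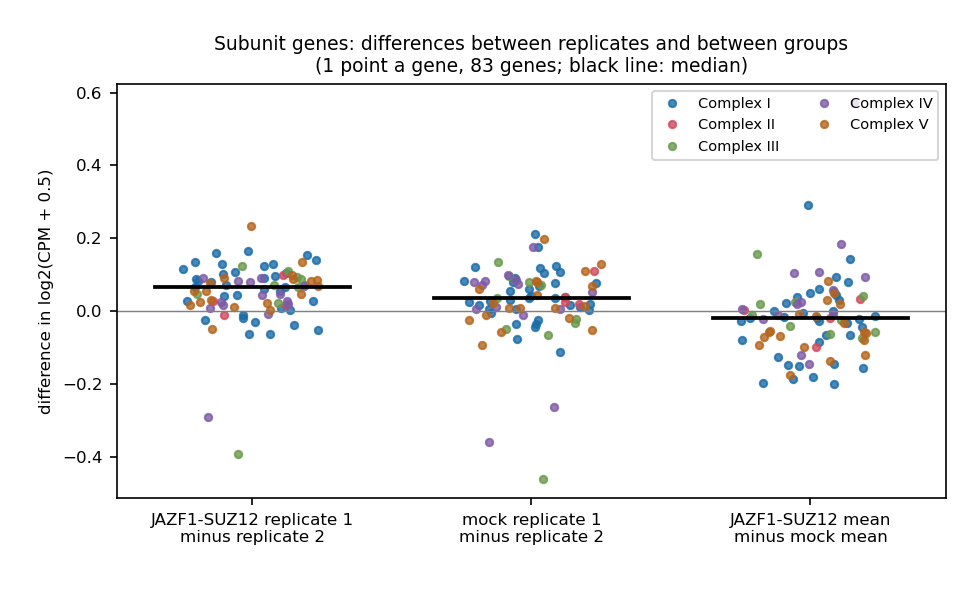
Differences in log2(CPM + 0.5) for the 83 tested members, coloured by complex, between the 2 replicates of each group and between the group means, with the median as a black line. The spread between group means, each of 2 libraries, is about that between single replicates, and most members lie above 0 in both replicate comparisons.

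Complex I held 5 of the 6 called members, or 13.9% of its 36 tested genes, beside the 24.7% of all genes. NDUFA5 (chr7:123536997-123558255, minus strand, GENCODE 29 on GRCh38), an accessory subunit of the arm that reaches into the matrix, stood at 243 and 236 CPM with JAZF1-SUZ12 and at 276 and 270 CPM in mock. Both JAZF1-SUZ12 libraries were below both mock libraries, and the log2 fold change was -0.19 (SE 0.05, adjusted p = 0.00635, edgeR). It was called in each of 7 other fits and without each library in turn. It was also the 1 member, of 84 with an adjusted p, that the authors' deposited table lists under 0.05, at a log2 fold change of -0.22 and an adjusted p of 0.0303, where 8.50% of the genes with an adjusted p in that table pass.

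NDUFA7 (chr19:8308768-8321396, minus strand), another accessory subunit of the matrix arm, was 42.7 and 44.7 CPM with JAZF1-SUZ12 and 37.1 and 34.2 CPM in mock. The groups did not overlap, and the log2 fold change was 0.30 (SE 0.07, adjusted p = 0.00712, edgeR). The call was lost without mock replicate 2, at a log2 fold change of 0.23 and an adjusted p of 0.0739. NDUFA7 shares exons on the same strand with AC010323.1, which had 48 and 111 counts against 102 and 159, and estimated counts may divide reads between such genes. Summed over both, an alternative chosen after seeing the data, the level was 45.5 and 49.2 against 42.2 and 41.7 CPM. The groups still did not overlap, but the log2 fold change was 0.18 and edgeR's adjusted p was 0.0690, so the call was lost. The authors' deposited table gives NDUFA7 a log2 fold change of 0.28 and an adjusted p of 0.263.

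NDUFB10 (chr16:1959508-1961975, plus strand), an accessory subunit of the membrane arm, was 104 and 94.7 CPM against 116 and 112 CPM, without overlap. Its log2 fold change was -0.20 (SE 0.06, adjusted p = 0.0203, edgeR), and the call was lost without JAZF1-SUZ12 replicate 2, at -0.13 and 0.222, and without mock replicate 1, at an adjusted p of 0.0809. NDUFA6 (chr22:42085525-42090955, minus strand), an accessory subunit of the LYR-motif family, was 58.7 and 54.8 CPM against 68.0 and 62.5 CPM, again without overlap. Its log2 fold change was -0.20 (SE 0.07, adjusted p = 0.0333, edgeR), and the call was lost with DESeq2, at 0.124, with total counts as the scaling, at 0.0559, and without JAZF1-SUZ12 replicate 2 or mock replicate 1. NDUFA9 (chr12:4649095-4694317, plus strand), which binds a nicotinamide nucleotide near the ubiquinone site, was 63.7 and 59.2 CPM against 69.8 and 69.5 CPM. Its groups did not overlap either, and the log2 fold change was -0.19 (SE 0.06, adjusted p = 0.0381, edgeR). Its exons overlap those of AC005833.1 on the same strand, which had 245 and 372 counts against 199 and 257. AC005833.1 was itself called higher, at a log2 fold change of 0.41 (adjusted p = 0.0348, edgeR). The sum of NDUFA9 with the overlapping protein-coding genes, also chosen after seeing the data, gave a log2 fold change of -0.09 with an edgeR adjusted p of 0.306. The NDUFA9 call was also lost without JAZF1-SUZ12 replicate 2, mock replicate 1 or mock replicate 2, with DESeq2 at 0.145, with total counts at 0.0614 and with a minimum mean of 50 counts at 0.0559.

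**Figure D4:**
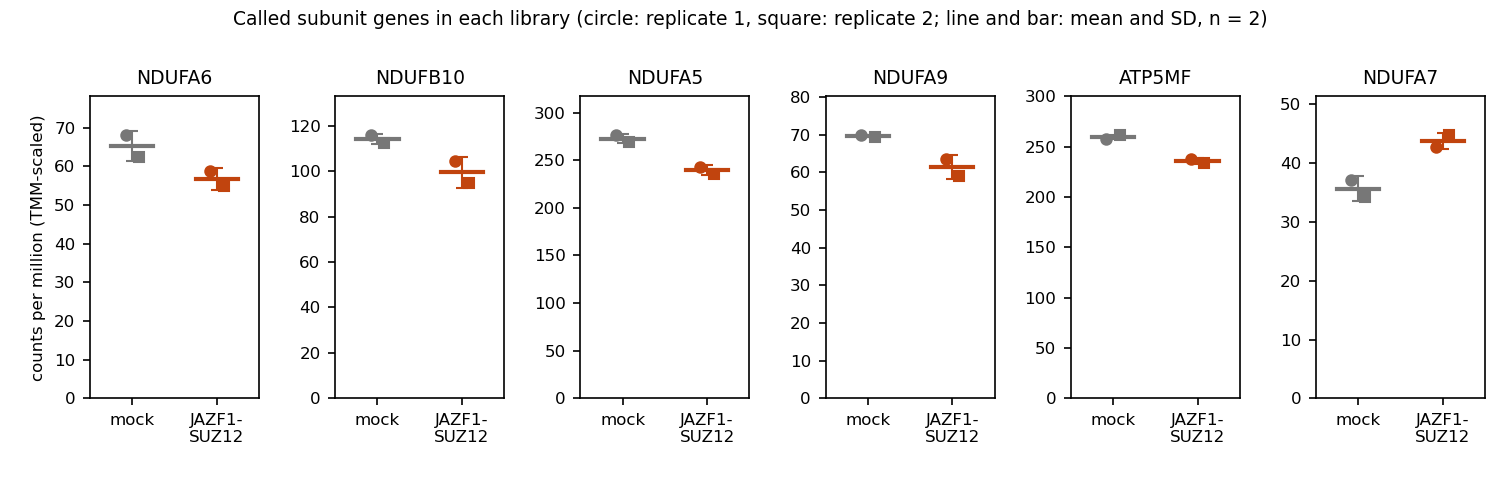
CPM of the 6 called members in each library (circle for replicate 1, square for replicate 2) with the mean and SD of each group, n = 2, on axes that start at 0. In each panel the JAZF1-SUZ12 libraries do not overlap the mock libraries, and NDUFA7 is the 1 gene that is higher.

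Core subunits of complex I encoded in the nucleus, among them those that carry the flavin or iron-sulfur clusters, were not among the called genes. NDUFV1, which binds NADH and flavin mononucleotide, was 265 and 255 CPM with JAZF1-SUZ12 and 257 and 263 CPM in mock, with overlapping groups and a log2 fold change of -0.00 (SE 0.05). NDUFS1, the large iron-sulfur subunit, was 137 and 131 CPM against 142 and 141 CPM. Its groups did not overlap, but the log2 fold change of -0.08 did not pass the test (adjusted p = 0.274, edgeR). NDUFV2, NDUFS3 and NDUFS7 had log2 fold changes of 0.06, -0.07 and 0.04. NDUFS8 was the furthest from 0 of the core subunits named here, at 75.9 and 76.5 CPM against 81.1 and 87.8 CPM and a log2 fold change of -0.15 (adjusted p = 0.0830, edgeR). Just outside the threshold stood the accessory subunits NDUFS5, at a log2 fold change of -0.16 and an adjusted p of 0.0626, and NDUFB5, at 0.14 and 0.0690, followed by NDUFB2 at 0.0738 and NDUFV3 at 0.0740 (edgeR). The median of the 36 genes of complex I was -0.02, and 25 of them had a negative log2 fold change (69.4%, beside 49.5% of all genes). With total counts as the scaling the median was -0.00, beside 0.03 over all genes, and 18 were negative (50%, beside 45.5%).

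All 4 genes of complex II, the succinate dehydrogenase shared with the citric acid cycle, were tested and 0 were called by edgeR, with 0 at an unadjusted p under 0.05 and 0 by DESeq2. Over all genes these shares were 24.7%, 36.0% and 16.3%, and 4 genes are few to set beside them. SDHA, the flavoprotein that oxidizes succinate, was 253 and 255 CPM with JAZF1-SUZ12 and 256 and 252 CPM in mock, a log2 fold change of 0.00 (SE 0.04). SDHB, the iron-sulfur subunit, was 118 and 116 CPM against 130 and 121 CPM, at -0.10 (SE 0.05). It was the 1 gene of the complex whose groups did not overlap. The membrane anchors SDHC and SDHD were 113 and 105 against 107 and 106 CPM, and 152 and 149 against 154 and 150 CPM. Their groups overlapped, with log2 fold changes of 0.03 (SE 0.06) and -0.02 (SE 0.05).

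Complex III had 10 tested genes, with 0 called by edgeR, 0 at an unadjusted p under 0.05 and 0 by DESeq2. The shares of all genes were 24.7%, 36.0% and 16.3%, and 10 genes are also few. UQCRC2, a core scaffold protein, was 291 and 287 CPM with JAZF1-SUZ12 and 301 and 294 CPM in mock, at a log2 fold change of -0.04 (SE 0.04). UQCRH, the hinge protein that docks cytochrome c, was 505 and 481 CPM against 490 and 467 CPM, at 0.04 (SE 0.04). The first pair did not overlap and the second did. CYC1, the cytochrome c1 subunit, had a log2 fold change of -0.06, and UQCRFS1, the Rieske iron-sulfur protein, one of -0.08. UQCRHL had between 7 and 19 counts a library, where its log2 fold change of 0.31 had an SE of 0.61. Its coding sequence is close to that of UQCRH, so the division of reads between both is uncertain.

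Complex IV had 14 tested genes of 18, with 0 called by edgeR and 0 by DESeq2, and 4 at an unadjusted p under 0.05, of which 2 were higher and 2 lower. Beside these, edgeR called 24.7% of all genes and DESeq2 16.3%, and 36.0% had an unadjusted edgeR p under 0.05. COX4I1, the main form of the regulatory subunit, was 370 and 364 CPM with JAZF1-SUZ12 and 384 and 363 CPM in mock, with overlapping groups and a log2 fold change of -0.02 (SE 0.04). COX7B, a small accessory subunit, was 155 and 146 CPM against 177 and 157 CPM, with a log2 fold change of -0.15 and an adjusted p of 0.0795 (edgeR). The groups did not overlap, although the mock replicates differed from each other by more than the group means did. With all 4 libraries COX7B passed the threshold without a filter, at an adjusted p of 0.0163, and with a replicate block, at 0.0277 (edgeR). The result also depended on which mock library was used. Without mock replicate 1 the log2 fold change was -0.07 with an adjusted p of 0.562, and without mock replicate 2 it was -0.25 with 0.00613. COX7B also passed the threshold without JAZF1-SUZ12 replicate 1, at -0.20 and 0.00771. COX5A, which lies on the matrix side, was 184 and 182 CPM against 200 and 199 CPM, at -0.12 and an adjusted p of 0.0662. On the other side of 0 stood COX6B1, which faces the intermembrane space, with 229 and 227 against 212 and 212 CPM, at 0.10 and an adjusted p of 0.108. NDUFA4 was likewise higher in both JAZF1-SUZ12 libraries, with 199 and 193 against 187 and 178 CPM, at 0.11 and 0.130 (edgeR). COX6B1 passed the threshold with total counts as the scaling, at 0.0366, and with a minimum mean of 50 counts, at 0.0324.

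Several complex IV subunits exist in forms used in different tissues, and the widely expressed forms carried nearly all the reads. COX4I2, a form known from lung, had 0 counts in every library, COX6A2, a heart and skeletal muscle form, had at most 1 count, and COX8C, a testis form, had at most 1. COX7A1, a muscle form, had between 4 and 7 counts in a library. These were 4 of the 5 members too low to test, and ATP5MGL, with 1 or 2 counts in each library, was the fifth. Their counterparts COX6A1, COX7A2 and COX8A stood at 205 to 225, 132 to 141 and 193 to 201 CPM over the 4 libraries. COX6A1 had a log2 fold change of 0.09, COX7A2 of 0.02 and COX8A of 0.02, and none passed the test. The testis forms COX6B2 and COX7B2 had low counts. COX7B2 had 20 and 38 counts with JAZF1-SUZ12 and 12 and 19 in mock, and its log2 fold change of 0.86 (SE 0.47) did not pass the test (adjusted p = 0.205, edgeR). COX6B2 stood at 2.32 and 2.34 CPM against 1.77 and 2.23 CPM, at 0.22 (SE 0.32).

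Complex V had 19 tested genes of 20, of which 1 was called (5.26%, beside 24.7% of all genes). A negative log2 fold change was found for 15 of the 19 (78.9%, beside 49.5% of all genes). With total counts as the scaling 13 were negative (68.4%, beside 45.5%). ATP5MF (chr7:99448475-99466331, minus strand), the f subunit of the membrane part, was 238 and 234 CPM with JAZF1-SUZ12 and 258 and 261 CPM in mock. The groups did not overlap, and the log2 fold change was -0.14 (SE 0.04, adjusted p = 0.0322, edgeR). The call was lost without JAZF1-SUZ12 replicate 2, at 0.109, without mock replicate 1, at 0.0756, and without mock replicate 2, at 0.0986. Its exons are shared with the readthrough gene ATP5MF-PTCD1 and with PTCD1, a mitochondrial RNA-binding protein, which had 341 and 516 counts against 577 and 588. Summed over these genes, the log2 fold change was -0.17 with an edgeR adjusted p of 0.0101.

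In the catalytic head of complex V, ATP5F1B, the catalytic beta subunit and the most abundant member by CPM, was 1502 and 1470 CPM against 1551 and 1544 CPM. Its groups did not overlap, and the log2 fold change of -0.06 (SE 0.04) did not pass the test (adjusted p = 0.303, edgeR). ATP5F1A, the alpha subunit, was at -0.06 and ATP5F1C, the gamma subunit, at -0.06. The c subunit of the rotor ring is made from the genes ATP5MC1, ATP5MC2 and ATP5MC3, whose mature proteins are identical. ATP5MC3 was the most abundant of them, at 616 and 588 CPM against 638 and 633 CPM, then ATP5MC2, at 210 and 209 against 209 and 201 CPM, and ATP5MC1, at 68.4 and 67.6 against 71.6 and 76.4 CPM. Only ATP5MC2 overlapped between the groups among these c subunit genes, and none passed the test, with log2 fold changes of -0.08, 0.03 and -0.12 in that order. ATP5IF1, which inhibits ATP hydrolysis, was 130 and 122 CPM against 130 and 135 CPM, at a log2 fold change of -0.07.

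Levels per length ordered the members differently from CPM. In mock cells, in CPM per kb of the principal transcript, the median level over the members averaging 50 counts or more (36, 4, 9, 12 and 19 genes) was 104 for complex I, 106 for complex II, 114 for complex III, 200.4 for complex IV and 218 for complex V. The highest level per kb in each was that of NDUFB9 (356), SDHB (109), UQCRH (792), COX4I1 (521) and ATP5MF (850), all in mock cells. The choice of transcript matters for this order. On the longest transcript in the annotation the level was 94.5 CPM per kb for COX4I1 and 335 for ATP5MF, and ATP5F1B, at 841, was then the highest of complex V.

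Counts of the copies were low. The table holds 104 other genes whose symbols match the same patterns, mostly pseudogenes, and 76 of them had 0 counts in every library. UQCRFS1P1 was the 1 with over 20 counts in a library, at 295 and 335 with JAZF1-SUZ12 and 351 and 366 in mock. The others summed to between 35 and 52 counts a library, so few of the reads were assigned to copies.

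The partners of the nuclear-encoded subunits were described the same way. Of the 13 subunits encoded in mitochondrial DNA, 3 were called lower and 0 higher by edgeR, with 2 higher at an unadjusted p under 0.05. The 3 were 23.1% of the list, beside 24.7% of all genes called in either direction and 11.4% called lower. DESeq2 called 1 lower and 0 higher, where it called 16.3% of all genes. MT-ND3, a membrane subunit of complex I, was 756 and 698 CPM with JAZF1-SUZ12 and 832 and 828 CPM in mock, at a log2 fold change of -0.19 (SE 0.04, adjusted p = 0.00513, edgeR). MT-ND1 was 2645 and 2521 CPM against 2804 and 3254 CPM, at -0.23 (adjusted p = 0.00578), and MT-ND2 was 4316 and 4117 against 4420 and 4909 CPM, at -0.15 (adjusted p = 0.0318). All 3 called genes belong to complex I and none overlapped between groups, as was so for 61.3% of all genes. The other complex I genes of the list, MT-ND4, MT-ND4L, MT-ND5 and MT-ND6, were at 0.03, 0.04, 0.03 and 0.11 and were not called. Mock replicate 2 was well above mock replicate 1 for MT-ND1 and MT-ND2. The calls of these 2 genes were lost with DESeq2, at adjusted p-values of 0.164 and 0.253, and with edgeR without mock replicate 2, at 0.0569 and 0.259. Without mock replicate 2 edgeR called 1 lower and 4 higher, without mock replicate 1 it called 5 lower, and without JAZF1-SUZ12 replicate 1 it called 6 lower. Without JAZF1-SUZ12 replicate 2 it called 3 lower and 2 higher. The 13 genes together took 5.27% and 5.12% of counts with JAZF1-SUZ12 and 4.83% and 5.39% in mock, and so overlapped.

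Assembly factors, the proteins that build the complexes without staying in them, were lower more often than higher. Of 55 tested, 9 were called lower and 0 higher by edgeR, where 13.3% of all genes were called higher. At an unadjusted p under 0.05 edgeR found 0 higher, beside 2714 of all 14750 genes, and DESeq2 called 0 higher, beside 1356. The median log2 fold change of the assembly factors was -0.08. COA7, a complex IV assembly factor, was 36.8 and 37.3 CPM with JAZF1-SUZ12 and 51.3 and 51.2 CPM in mock, at -0.47 (SE 0.07, adjusted p = 9.735e-05, edgeR). SCO1, a copper chaperone of complex IV, was 38.3 and 39.3 CPM against 49.0 and 48.5 CPM, at -0.33 (adjusted p = 0.00198). In both the mock replicates lay close together and well above the JAZF1-SUZ12 replicates. LYRM7, which delivers the Rieske protein to complex III, was 88.8 and 85.1 against 103 and 103 CPM, at -0.24 (adjusted p = 0.00432). The 9 lower genes were 16.4% of the list, beside 11.4% lower among all genes. DESeq2 called 5 of the 55 lower, beside 1051 of all 14750 genes. The count by edgeR fell without JAZF1-SUZ12 replicate 2 or mock replicate 1, as did the share of all genes called. Without each library in turn the median log2 fold change of the list ran from -0.10 to -0.07.

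Known regulators of mitochondrial biogenesis were called lower by edgeR in 5 of 12 tested (41.7%, beside 11.4% of all genes). It called 0 of them higher, beside 13.3% of all genes. At an unadjusted edgeR p under 0.05, 0 were higher, and DESeq2 called 0 higher, beside 2714 and 1356 of all 14750 genes. The median log2 fold change of the regulators was -0.17. TFB2M, a mitochondrial transcription factor, was 52.0 and 49.6 CPM with JAZF1-SUZ12 and 68.0 and 66.8 CPM in mock, at -0.41 (SE 0.06, adjusted p = 0.000175, edgeR). PPRC1, a coactivator related to PGC-1alpha, was 44.2 and 43.4 against 55.8 and 53.6 CPM, at -0.32 (adjusted p = 0.00192, edgeR). TFAM, which packages mitochondrial DNA and helps start its transcription, was 170 and 162 against 193 and 195 CPM, at -0.23 (adjusted p = 0.00288, edgeR). YY1 and POLRMT, the mitochondrial RNA polymerase, were also called lower. NRF1 itself was 21.1 and 20.6 against 23.8 and 24.8 CPM, without overlap, at -0.22, and did not pass the test (adjusted p = 0.0822). GABPA was 60.7 and 61.2 against 62.3 and 60.4 CPM, at -0.01. PPARGC1A had 0 counts in every library. The count of 5 was 4 or 5 without each library in turn.

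For the tested members whose promoters hold the NRF1 sequence, the median log2 fold change was -0.02 over 14 genes, with a range of -0.19 to 0.09, and it was -0.01 over 54 members without it. Among the called members with a promoter sequence, NDUFA9 alone held the NRF1 sequence and 0 held the ETS sequence.

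Of 18 genes of the pyruvate dehydrogenase complex and the citric acid cycle, which supply the chain with NADH and succinate, 4 were called lower and 1 higher by edgeR (27.8% of the list, beside 24.7% of all genes), with a median of -0.05. DLAT, the acetyltransferase of pyruvate dehydrogenase, was 190 and 182 CPM with JAZF1-SUZ12 and 218 and 208 CPM in mock, at -0.20 (adjusted p = 0.00774), and its call was lost without mock replicate 1, at 0.0633. IDH3A and IDH3B, subunits of the NAD-dependent isocitrate dehydrogenase, were at -0.21 and -0.17, and both calls were lost with DESeq2, at 0.0651 and 0.0744. IDH2, the NADP-dependent mitochondrial enzyme, was 162 and 161 against 149 and 138 CPM, at 0.17 (adjusted p = 0.0277), a call that was lost without mock replicate 2, at 0.318, and with DESeq2, at 0.0540. The count of lower genes was 1 without JAZF1-SUZ12 replicate 2 or without mock replicate 1, 2 without mock replicate 2 and 1 with DESeq2. CYCS, cytochrome c itself, which the symbols do not take in, was 584 and 553 CPM against 639 and 608 CPM, at -0.13 (adjusted p = 0.0387, edgeR). Its call was lost without JAZF1-SUZ12 replicate 2, at 0.169, without mock replicate 1, at 0.209, and with a minimum mean of 50 counts, at 0.0538.

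**Figure D5:**
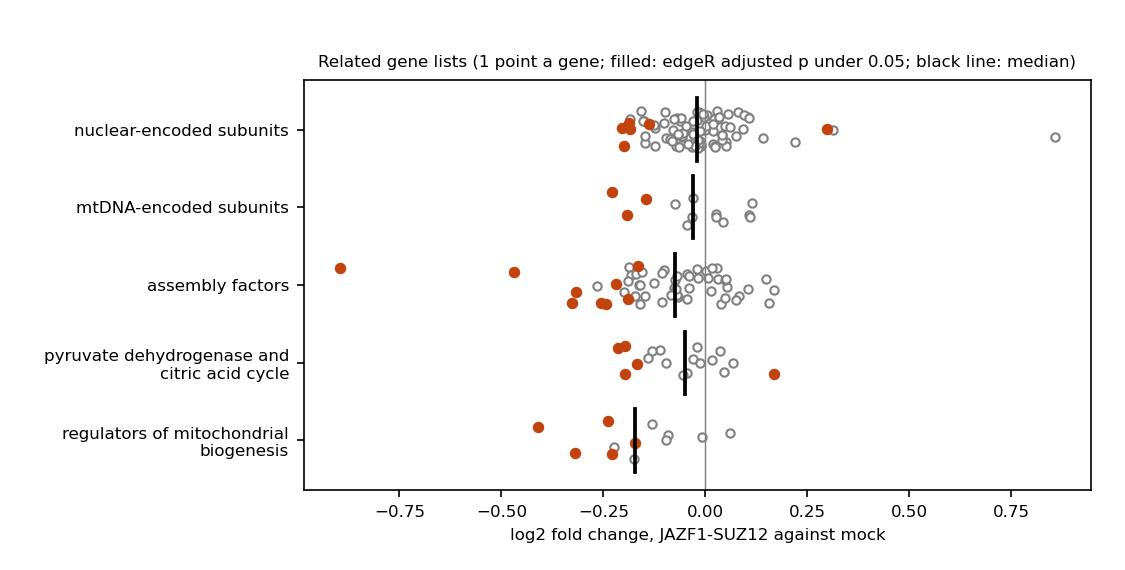
Difference (log2 fold change, JAZF1-SUZ12 against mock) of the nuclear-encoded subunits and 4 related gene lists, 1 point a gene, with the median as a black line and genes called by edgeR filled. The subunits centre on -0.02 and the regulators of mitochondrial biogenesis on -0.17.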

How the data were processed

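RNA-seq was compared between 2 JAZF1-SUZ12 and 2 mock libraries of K562 cells, grouped by description. The authors deposited estimated counts per gene that are not normalized. The submitters' processing notes name hg38, fastp 0.20.1, FastQC 0.11.7, MultiQC 1.5, kallisto 0.46.2 and DESeq2 1.30.1, without roles. Between 29.9% and 33.6% of a library's values are not whole (tolerance 1e-06), so they were rounded. Whether strand was used in counting is not given in the sources used here. In the authors' deposited comparison, the mean signal is depth-normalized counts, per the file headers. The authors' log2 fold change, score (a test statistic) and p-value per gene were also deposited, and only the log2 fold change and adjusted p are quoted.

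Genes passing edgeR's filterByExpr (14750) were fitted with TMM scaling and edgeR 4.0.16's quasi-likelihood F test (R 4.3.3), group as the only term, two-sided, Benjamini-Hochberg over all of them. The SE is the size of the log2 fold change over the square root of F. CPM are rounded counts per 1000000 of TMM-scaled library totals. Library totals were 17260936 to 24423028. Positions come from GENCODE 29, promoters from RefSeq. Alternatives were other size factors, total counts, DESeq2 1.42.0, limma-voom (limma 3.58.1), no filter, a mean of at least 50 counts, a replicate block, a stricter threshold and leaving out each library. In simulated counts of this comparison (14504 genes) edgeR recovered 96 of 100 genes changed 1.25-fold and 97 of 100 changed 2-fold, with 10 false calls. The 1.25-fold genes had a mean of at least 1000 counts and the 2-fold genes one of at least 50. Smaller changes were not simulated, so the recovery does not extend to them.

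The values of 1 tested member are not reported here singly, though it is in all counts and medians. Members and gene lists were chosen with earlier results of these data known. Named genes were up to 6 called members per direction and complex, the 2 most abundant per complex, the complex II genes, the alternative forms, and up to 3 called genes per list and direction. The other genes named in the text, such as core subunits, genes near the threshold and regulators, were added by function or after their values were seen.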

Additional observations from a re-analysis of the deposited data

How the results depend on the processing

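Members called higher numbered 3 with total counts, 4 with a mean of at least 50 counts and 0 to 2 without each library, against 1. Members called lower numbered 3 with total counts, 3 by DESeq2, 8 without a filter, 1 at an adjusted p under 0.01 and 1 to 7 without each library, against 5. Mitochondrially encoded subunits called higher numbered 2 with total counts, without a filter or with a mean of at least 50 counts, 1 with limma-voom and 0 to 4 without each library; those lower numbered 1 by DESeq2 and 1 to 6. Assembly factors called lower numbered 5 by DESeq2, 4 at the 0.01 threshold and 4 to 10 without each library, with 0 to 1 higher. In pyruvate dehydrogenase and the citric acid cycle, 0 were higher and 1 lower both by DESeq2 and at the 0.01 threshold, and 0 to 1 higher and 1 to 3 lower without each library. Regulators called lower numbered 4 to 5. With total counts, or with a minimum mean of 50, the median log2 fold change was 0.0137 or 0.0156 for complex II, -0.0529 or -0.0513 for assembly factors and -0.0289 or -0.0270 for pyruvate dehydrogenase and the citric acid cycle. Without each library, medians ran from -0.0613 to 0.0101 for the members, -0.0799 to 0.0264 for complex I, -0.0360 to -0.0011 for II, -0.0668 to -0.0005 for III, -0.0036 to 0.0504 for IV, -0.0782 to -0.0322 for V, -0.0991 to 0.0466 for mitochondrially encoded subunits, -0.1026 to -0.0719 for assembly factors, -0.0801 to -0.0288 for pyruvate dehydrogenase and the citric acid cycle and -0.2421 to -0.1138 for regulators. JAZF1 ran from 4.60 to 5.70 and SUZ12 from 0.97 to 1.03. The cause of these changes was not tested. Over all genes tested, same-numbered libraries did not deviate together (correlation -0.00072). Most members, however, were higher in replicate 1 in both groups, 84.3% in JAZF1-SUZ12 and 74.7% in mock, beside 52.6% and 49.7% of all genes. With a replicate block 2 members were called higher and 8 lower, and 2 mitochondrially encoded subunits higher, where 27.53% of all genes were called. A direction was counted only where a value was called or lay beyond 1 SE of 0; on that rule 0 results reversed, and 16 values changed sign within 1 SE of 0. Of 493 values of single named genes under the alternatives, 444 kept their direction and side of the threshold, 43 lost the call and 6 gained it. The median SE of the members' log2 fold changes was 0.0548. The smallest called difference among them was -0.14 (ATP5MF), and members at more than 2 SE from 0, such as COX5A at -0.12, were not called.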
